A study of Saccharomyces cerevisiae with 54 samples.

Results

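The 5 genes described here encode the acid phosphatases PHO3, PHO5, PHO11 and PHO12 and the alkaline phosphatase PHO8 of budding yeast. They were chosen by name, as YBR092C, YBR093C, YAR071W, YHR215W and YDR481C, from 6264 genes in the table, and all 5 had values. Acid phosphatases sit outside the plasma membrane and free phosphate from organic compounds in the medium. Pho5 is the main enzyme of this kind, while Pho11 and Pho12 are minor and nearly identical to each other. All 3 are made when phosphate is scarce. Pho3 acts on thiamine phosphates and its transcript is repressed by thiamine rather than by phosphate. Pho8 removes phosphate from its substrates inside the vacuole. When phosphate is low, Pho81 inhibits the cyclin and kinase pair Pho80 and Pho85, and the transcription factor Pho4 then enters the nucleus. Pho4 acts at the promoters of PHO5, PHO11, PHO12, PHO8 and the genes of phosphate uptake, at PHO5 together with Pho2.

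Each of the 54 arrays compared RNA of 1 of 17 non-laboratory strains of Saccharomyces cerevisiae with RNA of the diploid laboratory strain DBY8268, of S288c background, which carries ura3-52/ura3-delta, ho/ho and GAL2/GAL2. Cultures grew without treatment in the rich medium YPD (yeast extract, peptone and dextrose), in log phase. The study lists YPS163 and YPS1009 as oak strains, K1 and K9 as sake strains, B1, PR, I14, M8, M22 and RM11a as vineyard strains, YJM789 and YJM308 as clinical isolates, YJM269 and Y12 as strains of other fermentations, and Y1, Y10 and SB as natural isolates. RM11a and YJM789 were haploid. M8, Y10 and YPS163 had 4 arrays each and the other 14 strains had 3. The values are log2 ratios of a strain over DBY8268, so that a negative value means less of the transcript in the strain than in DBY8268. They are ratios and not levels, and no array held DBY8268 alone.

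Genes with a value numbered between 3393 and 5897 on an array, and 19.1% of all values were missing. The prefixes of the slide codes place the arrays in 4 slide series, called yG3, yG4, yG5 and yG6, of which yG6 held 24 arrays. M22, RM11a and YJM789 were only on yG6, so strain and slide series cannot be told apart for them. In every other strain, the dyes were reversed on the yG6 arrays and on no other array. Within those strains, a difference between yG6 and the other series therefore cannot be told apart from a difference between dyes. The labels of both haploid strains were checked against mating-type genes. RM11a had ratios between 4.52 and 8.07 for the 3 a-specific genes with a value, and YJM789 between 5.56 and 9.24 for 3 alpha-specific genes, above every other strain in each case.

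Most non-laboratory strains had less phosphatase transcript than DBY8268, and how much less depended on the gene. Over strains, the mean log2 ratio was -0.35 ± 1.02 for PHO3 (SD, 16 strains), -1.59 ± 1.07 for PHO5 (17 strains), -2.64 ± 1.33 for PHO11 (17 strains), -2.24 ± 1.09 for PHO12 (14 strains) and -1.50 ± 0.31 for PHO8 (17 strains). As folds, these means were 1.27 times lower for PHO3, 3.02 for PHO5, 6.23 for PHO11, 4.71 for PHO12 and 2.83 for PHO8. Every one of the 54 arrays had a PHO8 ratio below 0, while 51 of 54 did for PHO11, 46 of 53 for PHO5, 28 of 30 for PHO12 and 31 of 49 for PHO3. The mean over strains passed the limma test for PHO5 (adjusted p = 7.8e-21), PHO11 (adjusted p = 2.0e-25) and PHO8 (adjusted p = 6.3e-26). A mean below DBY8268 was common, since 26.8% of the 4654 genes with a value in all strains passed this test on the lower side. PHO3 and PHO12 lacked values in some strains and entered the same test over 5726 genes with at least 12 strains, of which 26.3% passed on the lower side. Their adjusted p there was 0.0015 and 1.1e-07. With slide series as a block the PHO3 mean was -0.08.

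Strain by strain, at a false discovery rate of 0.01, the members were called lower than DBY8268 in 46 gene and strain pairs and higher in 1. Over all genes, 4.88% of pairs were called lower and 3.86% higher, and in single strains between 2.97% and 10.7% of genes were called lower. PHO8 was called lower in 17 strains, PHO11 in 14, PHO5 in 11, PHO3 in 2 and PHO12 in 2. YJM269, from apple juice, was the strain in which all 5 members were called lower. SB and YJM308 had 4 members called lower. In K1, Y10 and YPS1009 PHO8 was the single member called lower. With each strain tested on its own arrays alone, 24 pairs were called lower, and 27 within slide series yG5 and 16 within yG6. Within yG5, strain means were below 0 in 14 of 14 strains for PHO11 and PHO8, 12 of 14 for PHO5 and 9 of 13 for PHO3, and within yG6 in 16, 17 and 15 of 17 for PHO11, PHO8 and PHO5 and in 9 of 16 for PHO3. All comparisons with DBY8268 share the same reference RNA, so that they are not independent of each other.

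**Figure D1:**
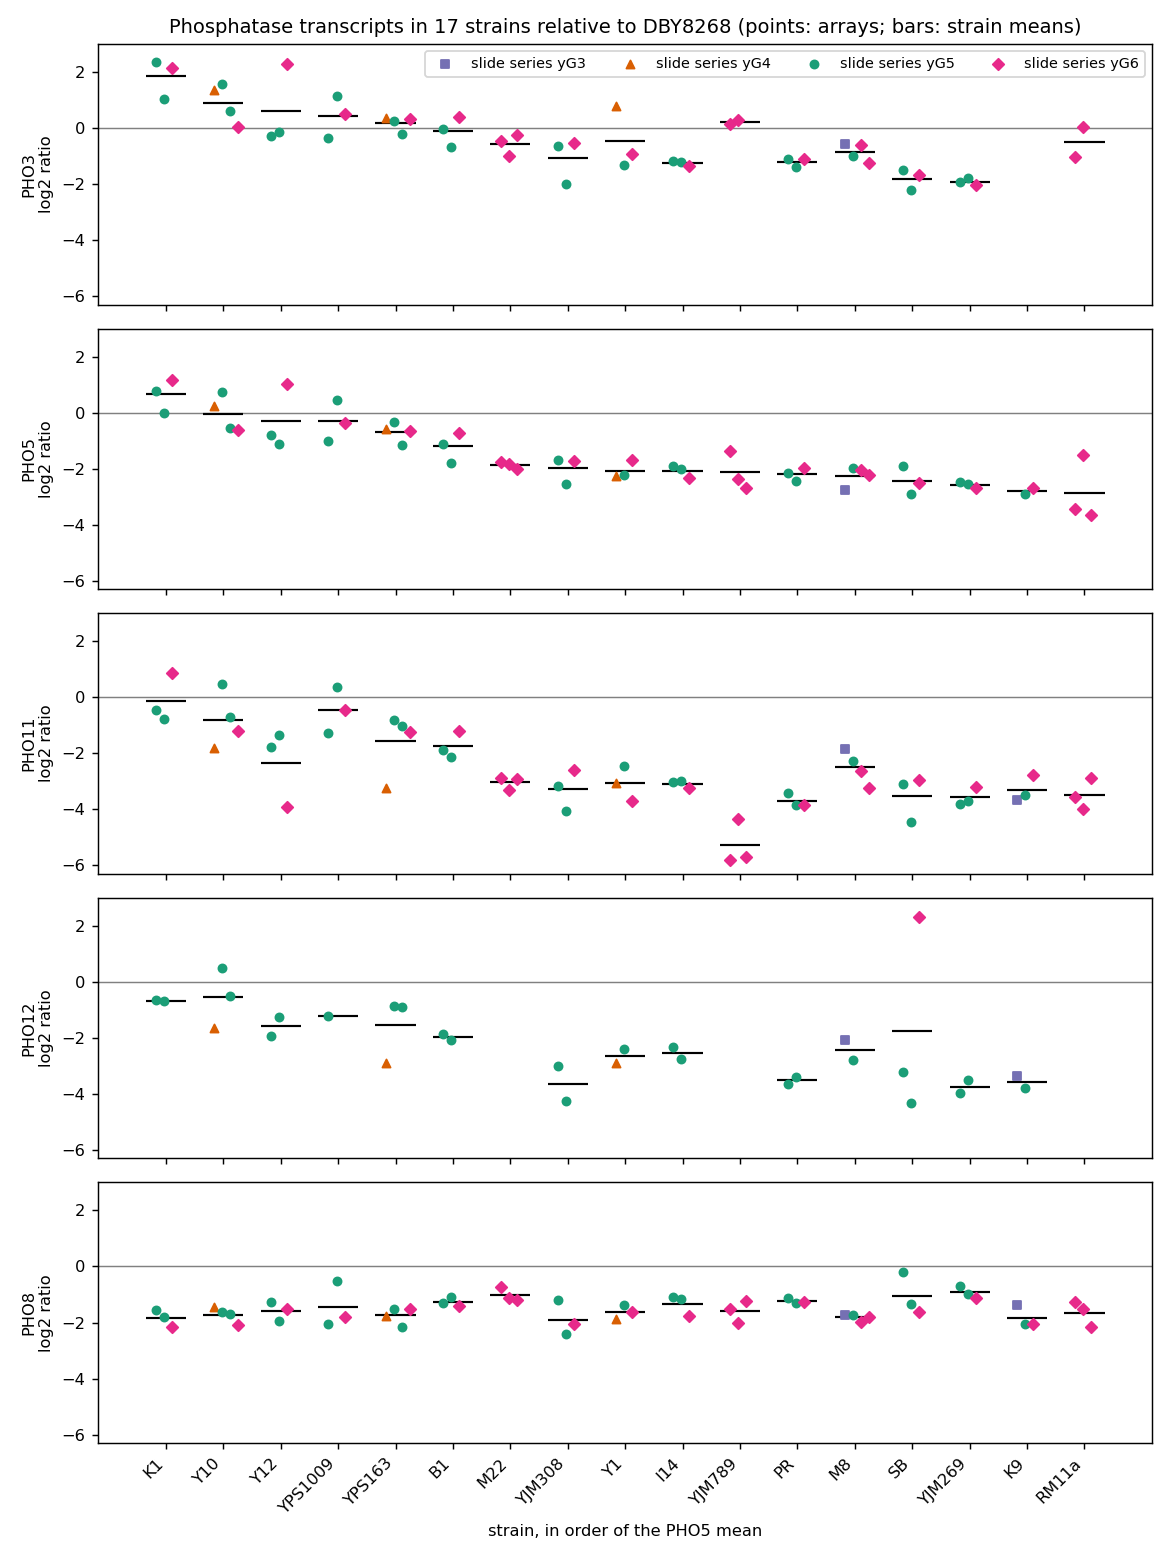
Log2 ratio of each member to DBY8268 (y axis, 1 panel per gene) on every array with a value (points, shaped by slide series) in 17 strains ordered by their PHO5 mean (x axis), with bars at strain means. PHO8 lies below 0 on all 54 arrays with strain means from -1.89 to -0.93, while PHO5 means run from -2.86 to 0.65 and PHO11 means from -5.28 to -0.12.

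PHO5, the main secreted acid phosphatase, lies beside PHO3 on chromosome II. In RM11a its log2 ratios were -3.44, -1.51 and -3.64, the lowest strain mean at -2.86. K9 had values on 2 arrays, -2.91 and -2.67, and YJM269 had -2.49, -2.53 and -2.68. These strains had 5.92 to 7.28 times less PHO5 transcript than DBY8268. SB had -1.91, -2.91 and -2.51. M8 had -2.77, -1.99, -2.06 and -2.21 on its 4 arrays. In the other 6 strains called lower (PR, YJM789, I14, Y1, YJM308 and M22) strain means lay between -2.19 and -1.87, and no array was above -1.37.

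At the other end of the PHO5 order stood K1, with 0.79, 0.00 and 1.17 and a mean of 0.65 (95% interval -0.01 to 1.32, adjusted p = 0.25). Y10 had 0.23, 0.75, -0.53 and -0.62, around a mean of -0.04 (interval -0.62 to 0.53). YPS1009 had -1.0, 0.46 and -0.36. Y12 had -0.79, -1.11 and 1.04, so that 1 array stood apart from the other 2. YPS163 had -0.58, -0.33, -1.14 and -0.66, all below 0, yet its mean of -0.68 missed the threshold (adjusted p = 0.12). B1 had -1.10, -1.78 and -0.73, and its mean of -1.20 also missed it (adjusted p = 0.014). Neighbouring strains in the PHO5 order overlapped in their arrays at all 16 steps. With so few arrays per strain, and neighbours set by their closest means, this cannot show whether the order has a break. Between M22 and B1 the overlap was narrow, with a highest array of -1.77 in M22 and a lowest of -1.78 in B1.

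The strains themselves differed in PHO5 beyond the spread of arrays, with F = 11.0 between strains (adjusted p = 2.1e-08). Of 4654 genes, 18.4% passed this F test. An SD over strains at least as large as that of PHO5 was found in 6.03% of genes with at least 12 strains. Against the mean of all strains, a reference that takes DBY8268 out, PHO5 was above it in K1 by 2.25 (SE 0.33, adjusted p = 1.0e-05) and in Y10 by 1.55 (SE 0.28, adjusted p = 3.75e-04). It was below that mean in RM11a, at -1.27 (SE 0.33, adjusted p = 0.0076). Within slide series yG5 alone F was 6.80 (adjusted p = 0.012), and within yG6 alone it was 4.25 (adjusted p = 0.14), so that neither series by itself passed 0.01. Strain means from both series had a Pearson correlation of 0.86 over 14 strains.

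PHO11, a minor repressible acid phosphatase, is the last protein-coding gene of chromosome I in the R64 gene table. It showed the widest range of the 5 members, 35.9-fold between the lowest and the highest strain mean. YJM789 had -5.81, -4.33 and -5.71, and among the arrays of all other strains only 1 of SB (-4.45) was lower than the highest of these. Its mean of -5.28 was a signal 38.9 times lower than that of DBY8268 (adjusted p = 7.0e-13). Against the mean of strains it stood at -2.64 (SE 0.42, adjusted p = 8.4e-06). The probes were designed on the S288c genome, and whether sequence or copy number of PHO11 in YJM789 lowers this ratio was not tested here. In 11 other strains, means lay between -3.70 (PR) and -2.35 (Y12). Of these, I14 with -3.04, -2.98 and -3.22 and M22 with -2.87, -3.30 and -2.91 had the tightest arrays.

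The upper end of the PHO11 order held much the same strains as that of PHO5. K1 had -0.44, -0.77 and 0.86, with a mean of -0.12 (interval -0.97 to 0.73). YPS1009 had -1.28, 0.36 and -0.46, and Y10 had -1.81, 0.47, -0.69 and -1.21. None of these 3 means passed the test against DBY8268 (adjusted p between 0.16 and 0.93). All 3 were above the mean of strains, by 2.52 in K1, 2.18 in YPS1009 and 1.83 in Y10 (SE 0.42, 0.42 and 0.36, adjusted p = 7.8e-05, 7.0e-04 and 0.0010). YPS163 had -3.25, -0.80, -1.02 and -1.23, with 1 array far below the other 3, and passed at -1.58 (adjusted p = 0.0018). B1 had -1.87, -2.14 and -1.19 and passed at -1.73 (adjusted p = 0.0045). Between strains F was 10.5 for PHO11 (adjusted p = 3.0e-08). Within single slide series F was 12.1 in yG5 and 11.4 in yG6. On yG6 the spread between arrays comes from M22, RM11a, YJM789 and M8 alone, since each other strain had 1 array there.

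PHO12 encodes a near copy of Pho11 and has 3 genes between it and the end of chromosome VIII in the R64 table. It gave 29 values on the 30 arrays outside slide series yG6 and only 1 value on the 24 arrays of yG6. Of 2631 genes with at least as many values outside yG6, 45 had at most 1 value on yG6. M22, RM11a and YJM789 therefore had no PHO12 value. The single yG6 value belonged to SB, which had -3.23 and -4.32 on its other arrays and 2.32 on this one. With all values kept, PHO12 was called lower in YJM269 (-3.98 and -3.49) and YJM308 (-3.0 and -4.26), and the F test between strains did not pass (F = 1.53, adjusted p = 0.31). Without that 1 value, a choice made after seeing the data, PHO12 was called lower in 9 strains: I14, K9, M8, PR, SB, Y1, YJM269, YJM308 and YPS163. The strain difference then passed (F = 6.65, adjusted p = 0.0013), and the SD of arrays within strains fell from 1.42 to 0.70. K1 (-0.65 and -0.69) and Y10 (-1.63, 0.51 and -0.51) stayed the highest strains.

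PHO3, the thiamine-repressible acid phosphatase, was the only member to be called higher than DBY8268 in any strain. K1 had 2.36, 1.03 and 2.14, which is 3.59 times the transcript of DBY8268 (adjusted p = 3.1e-04). The call was lost without K1 array 1 or without K1 array 3. Y10 had 1.36, 1.59, 0.61 and 0.03, all above 0, without passing (adjusted p = 0.058). Y12 had -0.28, -0.14 and 2.27, and its high array was the same one that stood apart for PHO5. Without that array, PHO3 was called lower in 4 strains in place of 2, and without SB array 2 in 1. At the low end, YJM269 had -1.91, -1.79 and -2.03 and SB had -1.51, -2.22 and -1.69, which were 3.76 and 3.50 times less than in DBY8268 (adjusted p = 1.7e-04 and 4.4e-04). K9 had no PHO3 value on any of its 3 arrays. Means were below 0 in 10 strains and above 0 in 6, and F between strains was 8.07 (adjusted p = 3.3e-06 over genes with at least 12 strains, of which 18.5% passed).

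PHO8, the vacuolar alkaline phosphatase, was lower than in DBY8268 in every strain, over a narrow range. Strain means ran from -1.89 in YJM308 to -0.93 in YJM269, a range of 1.95-fold. In K1 the 3 arrays gave -1.55, -1.80 and -2.16, in Y10 -1.43, -1.63, -1.70 and -2.10, and in YPS163 -1.76, -1.52, -2.16 and -1.50. These are strains in which PHO5 was not called. YJM269, in which all acid phosphatases were low, had -0.69, -0.97 and -1.12. The array nearest to 0 was -0.19, in SB, whose other arrays gave -1.34 and -1.61. A call on the lower side in every strain was met by 11 genes with values in all strains, or 0.236%. The F test between strains did not pass for PHO8 (F = 1.88, adjusted p = 0.13), and 57.4% of genes with at least 12 strains had an SD over strains at least as large as its 0.31. No strain was called above or below the mean of strains for PHO8.

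Against YPS163, the oak strain which the study used as another reference, the members were called lower in 5 pairs and higher in none. Over all genes, 0.533% of pairs were below YPS163 and 1.47% above it. The log2 difference from YPS163 for PHO5 was -2.11 in K9, -2.19 in RM11a and -1.89 in YJM269 (SE 0.49, 0.43 and 0.43). PHO3 was lower in YJM269, at -2.09 (SE 0.48), and PHO11 in YJM789, at -3.71 (SE 0.56). Leaving out array 1 of YPS163 or array 3 of Y12 gave 8 such pairs, and leaving out array 2 of YPS163 gave 2. Over the 5 pairs the adjusted p lay between 3.4e-06 and 0.0066. Against the mean of strains, 6 pairs were above and 3 below, beside 1.59% and 1.07% of all pairs. Besides those given above, the pairs were PHO3 in K1 (2.19 above) and PHO3 in YJM269, at -1.56.

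PHO5 and PHO3 lie next to each other, and their ratios to DBY8268 were compared on each array. The difference is one between ratios to DBY8268 and does not compare the amounts of the transcripts. PHO5 minus PHO3 was negative on all 49 arrays with both values, from -3.07 to -0.40, and in all 16 strains, from -2.08 in YJM789 to -0.64 in SB. The mean difference was -1.13 ± 0.44 (SD, 16 strains), a ratio of 2.19 (exact two-sided permutation test over the signs of the strains, p = 3.1e-05, the smallest it can give, and 6.1e-05 adjusted over 2 pairs). For PHO11 and PHO12 the difference did not pass. It was -0.17 ± 0.49 over 14 strains (exact permutation p = 0.19). Without the SB array it was -0.05 ± 0.18, from -0.48 in I14 to 0.36 in M8 (exact permutation p = 0.37). All strain differences share the DBY8268 RNA, so their signs are not independent of each other, while the permutation test treats them as if they were. Both pairs are close in sequence, and how far an array probe for one gene also read its partner was not tested.

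**Figure D2:**
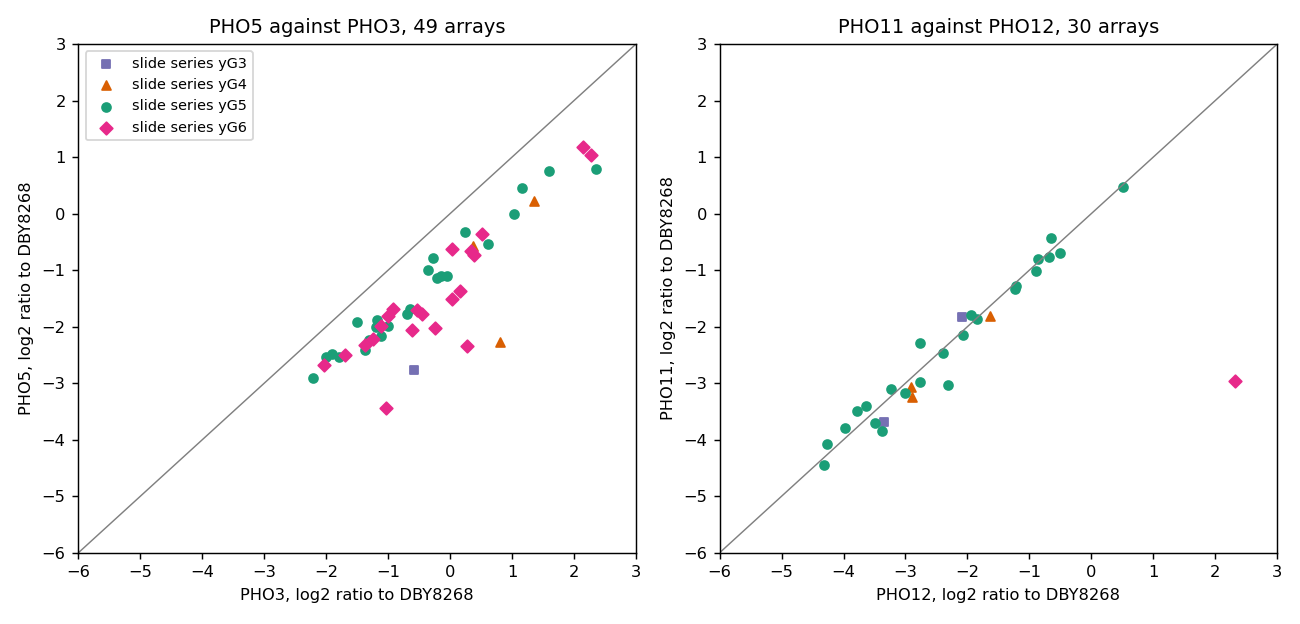
PHO5 against PHO3 (left, 49 arrays) and PHO11 against PHO12 (right, 30 arrays), log2 ratio to DBY8268 on both axes, 1 point per array shaped by slide series, with the line of equal ratios. All PHO5 points lie below the line, while PHO11 and PHO12 lie along it except for the SB array at 2.32 for PHO12.

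Across strains the acid phosphatases moved together, and PHO8 did not move with them. Over strain means, which share the DBY8268 reference, Pearson's r was 0.87 for PHO3 and PHO5 (16 strains), 0.85 for PHO5 and PHO11 (17 strains), 0.86 for PHO11 and PHO12 (14 strains) and 0.66 for PHO3 and PHO11 (16 strains). For PHO8 it was -0.58 with PHO3, -0.29 with PHO5 and -0.28 with PHO11. Among arrays of the same strain, PHO3 and PHO5 still moved together (r = 0.71 over 49 arrays), but PHO5 and PHO11 did not (r = -0.05 over 53 arrays). Array 3 of Y12 was such a case, with 2.27 for PHO3, 1.04 for PHO5 and -3.93 for PHO11. In YPS163, array 1 was low for PHO11 (-3.25) and PHO12 (-2.90) and unremarkable for PHO5 (-0.58). Among arrays of the same strain, PHO8 had r = 0.39 with PHO5, 0.26 with PHO3, 0.02 with PHO11 and -0.23 with PHO12.

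Of 13 other genes induced by low phosphate, 11 were called lower than DBY8268 in at least 1 strain, beside 25.2% of genes with at least 12 strains, and 7 were called lower in at least 12 strains, beside 1.8%. In all, 125 of 211 pairs (59.2%) were called lower and 1 higher, beside 4.88% and 3.86% of pairs over all genes. The list's median of the mean log2 ratio was -1.29, beside -0.03 over all genes. SPL2, a small inhibitor of low-affinity phosphate uptake, stood at -4.70 ± 0.93 (SD, 16 strains). The high-affinity transporters PHO84 and PHO89 stood at -2.53 ± 0.55 and -3.54 ± 1.34, called lower in 15 and 13 strains. The polyphosphate synthesis genes VTC1, VTC2, VTC3 and VTC4 stood at -1.82, -1.09, -2.22 and -1.73, and each was called lower in all 17 strains. PPN1, a polyphosphatase, had a mean of 0.05 and GIT1, a transporter of glycerophosphoinositol, a mean of 0.44.

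The uptake genes were compared with the members in the strains at the upper end of the PHO5 order. K1 had -2.25 for PHO84 and -5.81 for SPL2, both called lower, and -1.59 for PHO89, which was not (adjusted p = 0.11), and 6 of its 13 tested target genes were called lower. In Y10, PHO84 was -2.06, SPL2 -4.29 and PHO89 -3.17, all called lower, with 8 of 13 targets called. In YPS1009, SPL2 at -3.95 and PHO89 at -2.62 were called lower and PHO84 at -1.48 was not (adjusted p = 0.017), with 6 of 13 called. B1 had PHO84 at -2.11, called lower, and PHO89 at -1.87, not called (adjusted p = 0.071). Over all strains, between 6 and 9 targets were called lower in each. Over 17 strain means, PHO84 had a Pearson correlation of 0.62 with PHO5 and -0.13 with PHO8, with the reference RNA shared by all.

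**Figure D3:**
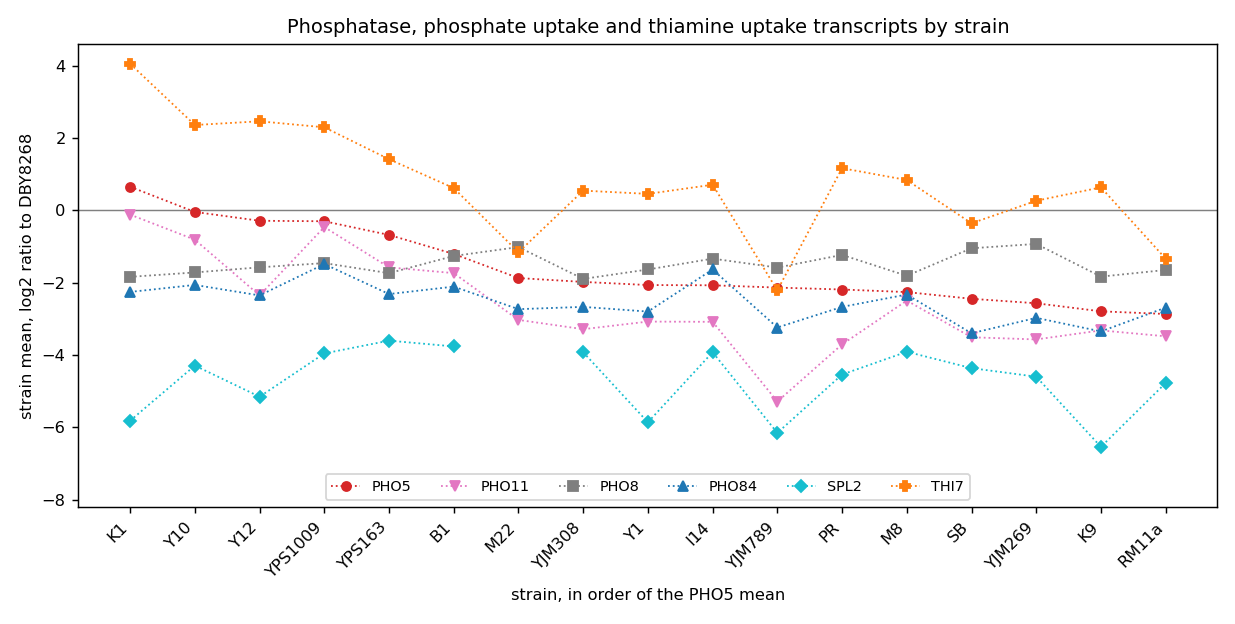
Strain means of PHO5, PHO11, PHO8, the phosphate uptake genes PHO84 and SPL2 and the thiamine transporter THI7, as log2 ratio to DBY8268 (y axis), in 17 strains ordered by PHO5 (x axis, dotted lines join the strains of 1 gene). PHO84 and SPL2 are at -1.48 or lower in every strain with a value, K1 included, where PHO5 is 0.65 and THI7 is 4.05.

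Among 8 regulators, 16 of 136 pairs (11.8%) were called lower and none higher, beside 4.88% and 3.86% of pairs over all genes. VIP1 and DDP1, which make and break the inositol pyrophosphates that signal phosphate state, had means of -0.92 and -0.51 and were called lower in 7 and 6 strains. PHO4, PHO2 and PHO80 had means of 0.07, -0.13 and 0.17. PHO81, the inhibitor of Pho80 and Pho85, had a mean of -0.71 with an SD of 1.33. It was called lower in 1 strain, YJM789 (-4.16, adjusted p = 3.7e-05), which is also the strain with the lowest PHO11. Another list held 5 genes, of constitutive phosphate transporters and of helpers of transport. In it PHO86, which helps transporters leave the endoplasmic reticulum, had a mean of -0.91 and was called lower in 16 strains. Its place in this list rests on that helper role and not on how it is regulated. PHO87, a low-affinity transporter, had a mean of 0.87 and PHO90, another, 0.04. Of 3 other phosphatase genes, none was called lower in any of 43 pairs. The 2 pairs called higher were PHO13 in M22 (1.89, on 1 array) and PPX1 in YJM308 (0.59). They make 4.65% of pairs, near the 3.86% over all genes. DIA3, an acid phosphatase homologue, had a mean of -0.50 over 11 strains, PHO13 0.18 and PPX1 0.04.

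**Figure D4:**
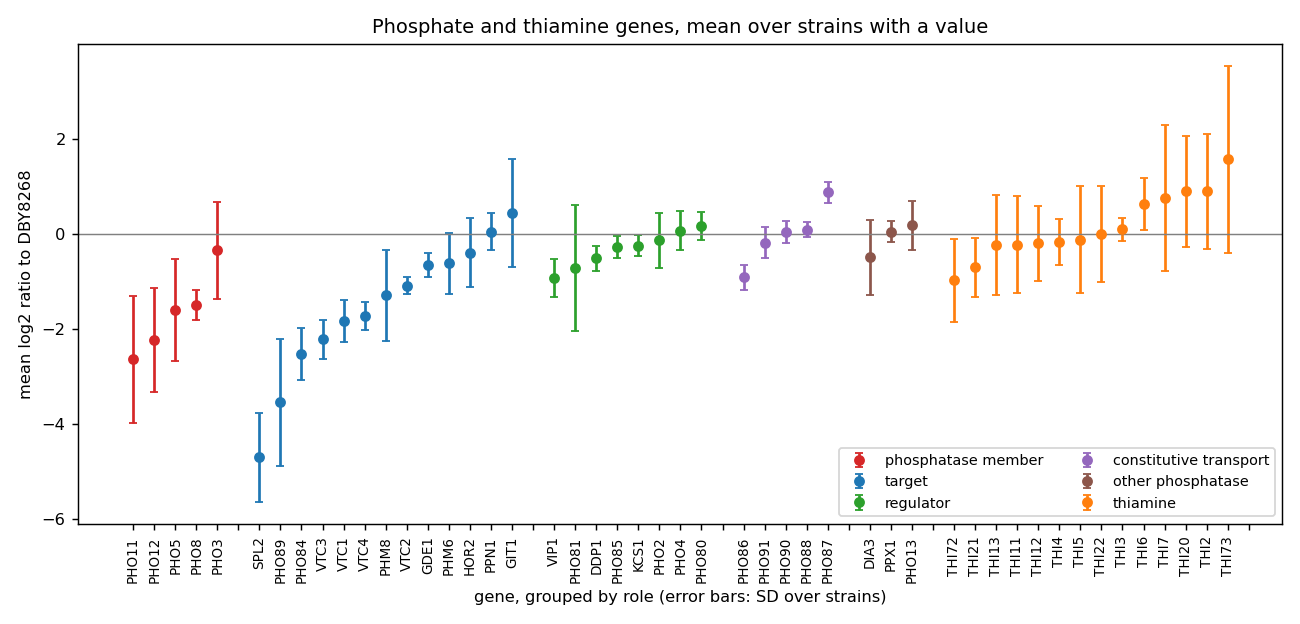
Mean log2 ratio to DBY8268 over strains with a value (y axis), with error bars of 1 SD over strains, for the 5 members and for other phosphate and thiamine genes grouped by role (x axis). The induced uptake and polyphosphate genes reach -4.70 (SPL2). The regulators and the group of constitutive transporters and helpers of transport lie between -0.92 and 0.87. The thiamine genes spread around 0 up to 1.56 (THI73).

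Because PHO3 is regulated by thiamine, 14 thiamine genes were examined as well. Over them, 16 of 220 pairs (7.27%) were called higher and 7 (3.18%) lower, beside 3.86% and 4.88% of pairs over all genes. The higher calls lay in 4 strains. K1 had 7 of them, with THI73, a putative permease, at 6.83, THI20, a kinase of thiamine synthesis, at 4.68, THI7, the thiamine transporter, at 4.05, and THI2, an activator of thiamine genes, at 3.29. Y10, Y12 and YPS1009 had THI73 at 3.08, 2.89 and 3.65 and THI7 at 2.36, 2.46 and 2.30, all called higher. These 4 strains are also the upper 4 in the PHO5 and the PHO3 order. YJM789, with the lowest PHO11, had THI7 at -2.21, called lower. THI4, the thiazole synthase, was called higher only in K1 (1.30).

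Over strain means, THI7 came next in likeness to PHO5, by Pearson's r, among 5233 genes with values in at least 15 strains (r = 0.80, 17 strains), after PHO3 and PHO11. TMA7, a ribosome-associated factor (0.79), and GAR1, a small nucleolar ribonucleoprotein component (0.77), followed. For PHO3, after PHO5, the genes were PMP3, a small membrane protein (0.81), SWM2 (0.80), CHO2, of phosphatidylcholine synthesis (0.80), and SSO2, a plasma membrane t-SNARE (0.79). For PHO11 they were GAR1 (0.88), the polymerase subunit RPB5 (0.87), NHP2 (0.85), PHO5 (0.85) and DPB4 (0.84). GAR1, TMA7, RPB5 and NHP2 were called in no strain against DBY8268, and GAR1 averaged 0.19. PHO8 was most like VPH1, a subunit of the vacuolar proton pump (0.83), followed by the sulfate assimilation and methionine genes MET3 (0.83), MET5 (0.82), MET2 (0.82) and MET10 (0.81). VPH1 averaged 0.15 and MET3 1.04, so that their likeness does not lie in the direction against DBY8268. By rank, Spearman's correlation with PHO8 was 0.85 for VPH1, but 0.64 for MET3, 0.65 for MET5, 0.68 for MET2 and 0.64 for MET10. MET3 was highest in M22 (4.84), YJM269 (3.99) and SB (3.13), the strains with PHO8 means nearest to 0. All of these correlations share the reference RNA and the arrays, and 5% of genes had r above 0.48 with PHO5 and above 0.44 with PHO8.

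The neighbours of the members on the chromosome, by gene order in the R64 table, were compared with them. TIM12, a mitochondrial import protein next to PHO3, went the opposite way, with a mean of 0.78 and 11 strains called higher, and PBY1 on the other side of PHO5 averaged -0.29 with 1 strain called lower. The 6 genes around PHO8 averaged between -0.37 and 0.06, and of these DIG2 was called lower in 1 strain and the other 5 in none. Near PHO11, YAR064W averaged -1.30 with 8 strains called lower, while YAR066W and YAR068W averaged 0.52 and 0.39. Next to PHO12, the transposon open reading frames YHR214C-B and YHR214C-C averaged -3.32 and -4.92, and IMD2, of GTP synthesis, averaged 0.61. YHR219W, at -1.01, was called lower in 11 strains. Copy number at these loci was not tested here.

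**Figure D5:**
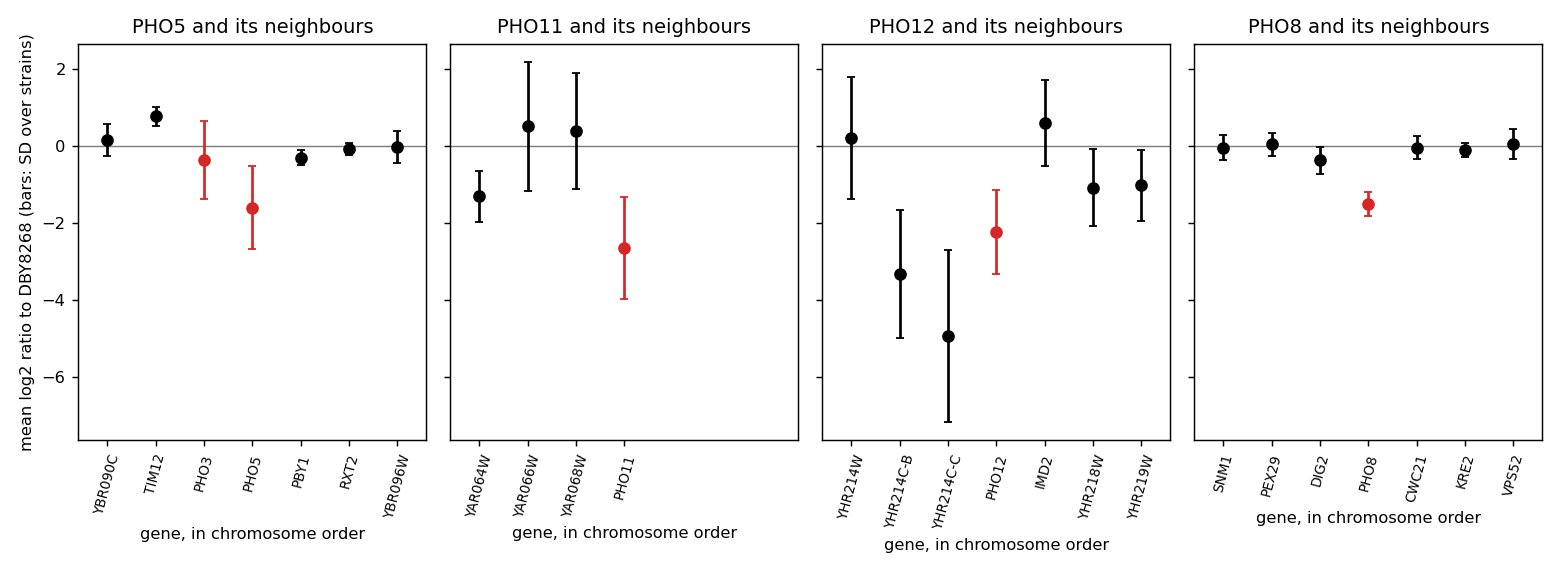
Mean log2 ratio to DBY8268 over strains (y axis, bars of 1 SD over strains) for PHO5, PHO11, PHO12 and PHO8 and up to 3 neighbouring genes on either side, in chromosome order by the R64 table (x axis), with phosphatase genes in red. The 6 neighbours of PHO8 lie between -0.37 and 0.06 beside PHO8 at -1.50, and the neighbours of PHO12 reach -4.92.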

How the data were processed

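The 54 samples are 2-colour arrays of spotted long oligonucleotides, designed, by the study, on the S288c genome. How far sequence differences from S288c change a ratio was not tested here. The deposited values are log2 ratios of a strain over DBY8268, 1 per gene and array. Before deposit, by the methods of the study, the authors had kept unflagged spots above a minimum pixel correlation and centred each array by regional means. On 18 arrays the dyes were reversed, and their ratios run in the same direction as the rest (PHO8 was below 0 on all 54 arrays). The centring hides a shift of all transcripts together, and the filter can remove weak spots. Spot intensities were not analysed here, so the number of arrays limits the precision. Of 6264 genes, 5824 matched the R64 gene table, which gave symbols and gene order. No coordinates were used.

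Strains were compared with limma 3.58.1 in R 4.3.3 (lmFit and eBayes), in 1 fit of 54 arrays with a coefficient per strain and Benjamini-Hochberg adjustment over all genes within a strain, at a false discovery rate of 0.01 as in the study. Of the genes, 6033 were tested and 231 had too few values. The F test and the mean over strains used genes with a value in all 17 strains, or, for PHO3 and PHO12, in at least 12. The fit was tested on simulated data. The series' design gives at least 3 cultures per strain without tying each array to a culture, so p-values measure the spread between arrays.

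The members, the gene lists and the rule for similar genes (the 5 highest Pearson correlations over strain means) were chosen with earlier results of these data known. Alternatives were other centring and scaling, filters on missing values, each strain on its own arrays, dye, slide, slide series and replicate number as terms, and leaving out each array. The analyses without PHO12 values on yG6, over at least 12 strains and of paralogs without 1 SB array were chosen after seeing the data.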

Additional observations from a re-analysis of the deposited data

Results flagged for a closer look

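The effect against DBY8268 differed between strains, by the F test of the difference itself in limma, for PHO3 (F = 8.07), PHO5 (F = 11.0) and PHO11 (F = 10.5). Each of the 3 strains with 4 arrays was examined for an array far from the rest in the members with 4 values. None of the 12 groups tested held one by Dixon's criterion, which by chance picks about 1 group in 20. PHO11 in YPS163, with its low array of -3.25 described above, came near the limit without passing it. The high array 3 of Y12 and the SB value of 2.32 for PHO12 lie in strains with 3 arrays, which are too few for it.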

How the results depend on the processing

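Depth limits PHO12 most, with 30 values and an SD of 1.42 within strains. The 46 lower calls against DBY8268 became 24 with each strain on its own arrays, 27 within yG5 and 16 within yG6, where fewer arrays entered. Over genes with a value on all arrays, PHO11 and PHO8 were the only members left, so calls of PHO3, PHO5 and PHO12 drop out there. The 1 higher call, PHO3 in K1, became 0 in that setting for this reason. It became 0 within yG5, 0 within yG6 and 2 with a dye coefficient. PHO5 was then called lower in 6, 6 and 3 strains (own arrays, yG5, yG6), PHO11 in 7, 7 and 8, and PHO8 in 5, 3 and 5. PHO3 was called lower in 4 strains with arrays scaled to the same spread, in 1 with slide series as a block and in 0 within yG6. PHO12 was called lower in 0 strains with scaling, with a dye coefficient and with the replicate block, in 5 with slide series as a block, and in 9 within yG5 and without its yG6 value.

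Against the mean of strains, the 3 calls below became 1 over genes on all arrays, 1 on own arrays, 0 within yG5 and 1 within yG6. The 6 calls above became 3, 1, 3 and 0 under the same settings, 12 with a dye coefficient and 10 with slide series as a block. In the latter fits each gene was centred on its mean of strains before the term was fitted, so the term can shift all strains of a gene together. The PHO12 mean moved from -2.24 to 0.67 with the dye coefficient and to -1.0 with slide series. These counts are therefore not like the main count. Against YPS163, the 5 calls below became 1 over genes on all arrays and 2 on own arrays. They became 12 with slide series as a block and 1 within yG6, with none above under the main setting. The counts over genes on all arrays are those of PHO11 and PHO8 alone. In the main fit, PHO11 by itself had 1 call below the mean of strains, 3 above it and 1 below YPS163. PHO8 had none.

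PHO12's mean of -2.24 became 0.67 with a dye coefficient, -1.0 with slide series as a block, -0.023 with the replicate block and 2.32 within yG6. The yG6 array was also its only 1 with strain RNA in the reversed dye. PHO3's mean of -0.35 became -0.08 with slide series as a block, -0.55 within yG5 and -0.24 within yG6. With the dye coefficient PHO12 in Y10 reversed to 2.50 (adjusted p = 0.0042). PHO5's F test fell to 6.80 within yG5 and 4.25 within yG6 (adjusted p = 0.012 and 0.14), and PHO12's rose to 6.65 without its yG6 value. Apart from members or centring that a setting changes by its construction, the cause of the other changes was not tested. Within every strain on several slide series, the dyes were reversed on yG6 and only there. The settings for dye and for slide series are therefore not independent checks.

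Leaving out each array in turn gave 44 to 52 lower calls against DBY8268 and 0 to 1 higher (0 without K1 replicate 1 or 3). PHO3 was called lower in 1 (without SB replicate 2) to 4 strains (without Y12 replicate 3), PHO5 in 11 to 12, PHO11 in 13 to 14, PHO8 in 16 to 17, and PHO12 in 1 to 9, with 4 without SB replicate 2 and 9 without SB replicate 3. Calls below YPS163 ranged from 2 (without YPS163 replicate 2) to 8 (without YPS163 replicate 1 or Y12 replicate 3), with 3 without any 1 array of YJM269 or without YPS163 replicate 4. Calls above the mean of strains ranged from 4 to 8 and below it from 2 to 4. Under leaving out single arrays, mean ratios moved within -0.40 to -0.31 for PHO3, -1.63 to -1.57 for PHO5, -2.67 to -2.59 for PHO11, -2.38 to -2.14 for PHO12 and -1.53 to -1.48 for PHO8.

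Deviations from the strain means had a mean r of 0.08 between same-numbered arrays of different strains (411 pairs, from -0.75 to 0.68). Between arrays of different number it was -0.03 (960 pairs). Whether replicate numbers pair the arrays was not tested. The replicate block moved no count of member calls other than that of PHO12 by over 1.5 times. The consensus correlation of arrays on 1 slide was 0.16.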
